A study of Homo sapiens with 12 samples.

Results

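The effect of NF1 knockout without drug was read from 5 libraries of T47D cells, 3 of a control line and 2 of an NF1 knockout line, of 11 libraries in the count table. The libraries were chosen by their column labels, and all 16081 genes with enough counts in the table's 27864 were tested. T47D is an established luminal breast cancer line that expresses the estrogen receptor. The groups compared were cells of genotype CTRL in DMSO, the drug vehicle (CTRL, replicates 1 to 3), and cells of genotype NF1 KO in DMSO (NF1KO, replicates 2 and 3), both for 48 h. NF1KO DMSO replicate 1, the remaining one of 12 labelled samples, was not analysed here. The other 6 libraries were the same lines in 3 µM BYL719 (alpelisib), an inhibitor of PI3K alpha, and shared no library with the DMSO comparison. The study asked about resistance to PI3K alpha inhibition after NF1 loss, and the DMSO comparison gives the state of the knockout cells without the drug. The labels give neither the reagent that disrupted NF1 nor whether a line was 1 clone or a pool, and each genotype was a single line, so that line and knockout cannot be told apart. They also do not say whether replicates were separate cultures, so p-values measure the spread between these samples only.

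Neurofibromin, the product of NF1, speeds the hydrolysis of GTP by RAS and so switches RAS off. Active RAS drives RAF, MEK and ERK, and ERK raises transcription of a small group of genes that includes its own inhibitors, the Sprouty and SPRED proteins and the dual-specificity phosphatases. In luminal breast cancer, NF1 loss is known from endocrine-resistant tumours, and RAS also feeds into PI3K.

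Values per library are read counts scaled to library size (CPM), which follow gene length and are compared here between libraries, not between genes. Differences are log2 fold changes of NF1KO over CTRL with their standard error, and a gene was called at an adjusted p under 0.05. Groups are named separated where their libraries do not overlap. With 3 CTRL and 2 NF1KO libraries this can happen without a difference, and its share over all genes is not given here. The 5 DMSO libraries held 53283945 to 56862412 counts, and the share in ribosomal RNA genes was 8.66% to 10.9%. Over 9901 genes of at least 10 CPM on average, CTRL replicate 1 stood apart. It differed from replicates 2 and 3 by a median of 0.139 and 0.143 on the log2 scale, against 0.066 between replicates 2 and 3 and 0.057 between the NF1KO libraries. CTRL replicate 1 in BYL719 stood apart in the same way. Without CTRL DMSO replicate 1, 1245 genes were higher and 1380 lower in DMSO, and without both of these libraries 1983 were higher and 2162 lower. Among markers of other cells, the fibroblast list summed to 49.8 to 55.4 CPM in CTRL and 26 to 26.1 CPM in NF1KO, nearly all of it COL1A1, and its part in the results was not tested. The immune list summed to at most 2.59 CPM and the endothelial and adipocyte list to at most 1.46 CPM in any of the 5 libraries. In bulk RNA, fewer cells of a kind and less RNA per cell cannot be told apart.

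NF1 transcripts were nearly absent in the knockout line. NF1 (chr17:31094977-31377675, GRCh38) was at 289, 209 and 250 CPM in CTRL and at 0.48 and 0.471 CPM in NF1KO. The groups were far apart, with a log2 fold change of -9.03 ± 0.32 (adjusted p = 2.51e-09, edgeR's quasi-likelihood test). Across all genes, 1607 were higher in NF1KO (9.99% of those tested) and 1662 lower (10.3%), together 20.3%. Most called changes were small. The median size was 0.57 for rises and 0.62 for falls on the log2 scale, and the smallest called was 0.19 in both directions. Over 2-fold, 453 rises and 455 falls were about equal in number, and 300 and 329 when a gene had to reach 1 CPM in 3 or more libraries. Over 4-fold there were 215 rises and 138 falls, and over 16-fold 49 and 24. Of 13857 protein-coding genes 21.8% were called, and of 1338 long noncoding RNAs 12.6%. With 1 NF1KO library left out, fewer genes were called: 766 rose and 795 fell without NF1KO replicate 2, and 744 and 779 without NF1KO replicate 3.

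**Figure D1:**
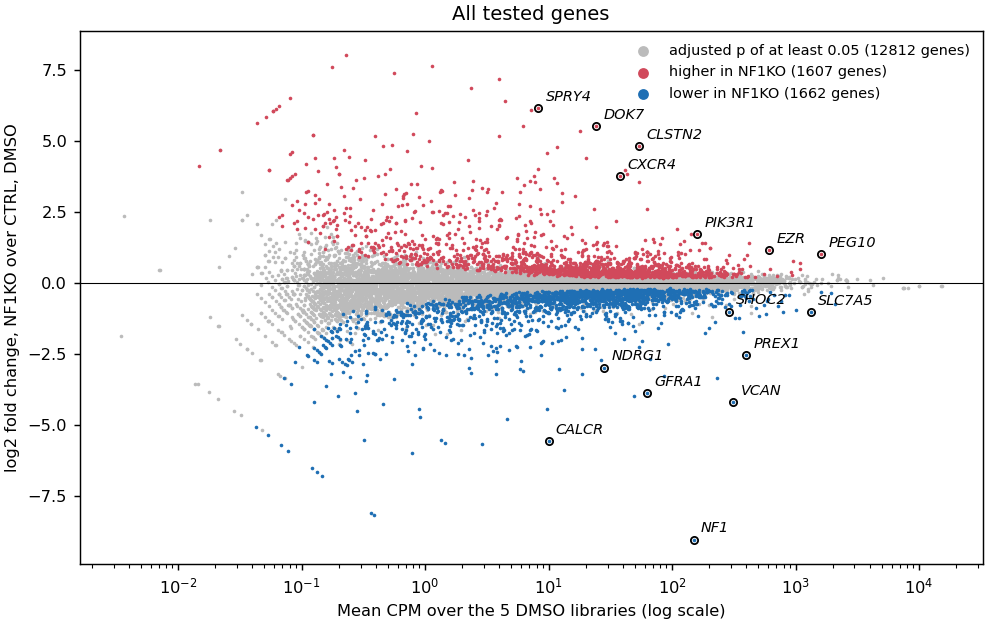
Each point is a tested gene, placed by its mean CPM over the 5 DMSO libraries (log scale) and its log2 fold change; red points were higher in NF1KO (1607), blue lower (1662) and grey not called. NF1 lies lowest at -9.03, and abundant genes such as PEG10 and SLC7A5 changed by 1.03 and -1.03.

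ERK output genes rose, some from near 0. Of the 10 genes of the MAPK pathway activity score, a published list of ERK targets, 9 rose and 1, the ephrin receptor EPHA4, fell. Thus 100% were called, against 20.3% of all genes, with a median log2 fold change of 2.62 against -0.01 over all genes. Some of the 10, such as SPRY4, DUSP6 and ETV5, are counted again in the lists of feedback inhibitors, phosphatases and transcription factors below. SPRY4, ETV5 and DUSP6, on this list, were used with NF1 as the check of the labels. SPRY4, an inhibitor of receptor signalling to RAS, was at 0.137, 0.273 and 0.445 CPM in CTRL and 20.3 and 20.1 CPM in NF1KO. The ETS factor ETV5 went from 0.189, 0.292 and 0.278 CPM to 17.6 and 17.5 CPM. The ERK phosphatase DUSP6 went from 0.739, 0.802 and 1.32 CPM to 23.3 and 22.1 CPM. None of these 3 overlapped between the lines, and their log2 fold changes were 6.15 ± 0.23, 6.11 ± 0.20 and 4.58 ± 0.19.

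The feedback inhibitors differed widely among themselves. Of 7 Sprouty and SPRED genes, 4 rose and 0 fell (57.1% called, against 20.3% of all genes). SPRY2 was at 1.6, 1.79 and 2.02 CPM in CTRL and at 4.39 and 4.29 CPM in NF1KO (1.27 ± 0.14, adjusted p = 3.94e-05). SPRED1, which brings neurofibromin to the membrane, was at 8.61, 9.59 and 9.22 CPM in CTRL and at 20 and 15.9 CPM in NF1KO (0.98 ± 0.14, adjusted p = 0.000325). SPRED2 rose by 0.68 ± 0.09, while SPRY1 was at 0.06 and SPRY3, which overlaps TMLHE, at 0.12 without a call. Among 10 phosphatases of ERK and other MAP kinases, 4 rose and 1 fell. DUSP4, a nuclear ERK phosphatase, was at 5.93, 6.58 and 5.75 CPM in CTRL and at 99.6 and 91.4 CPM in NF1KO, with the smallest adjusted p of the list (3.97 ± 0.09, adjusted p = 8.67e-11). DUSP5 and DUSP16 rose by 0.59 ± 0.06 and 0.49 ± 0.06. DUSP9 fell by 0.55 on the log2 scale, a call lost without any 1 of the 5 libraries, and DUSP1, an early stress-induced phosphatase, was at -0.02 without a call.

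Among transcription factors downstream of ERK, 12 of 18 rose and 1 fell (72.2% called, against 20.3% of all genes), with a median of 0.70. ETV4 was at 0.189, 0.0911 and 0.0928 CPM in CTRL and at 11.3 and 10.4 CPM in NF1KO (6.41 ± 0.32), but it overlaps DHX8, whose counts were 2520% of its own. ETV1, of the same ETS subfamily, was at 1.03, 0.82 and 0.78 CPM in CTRL and at 3.01 and 3.57 CPM in NF1KO (1.90 ± 0.18, adjusted p = 1.14e-05). EGR3 was at 1.99, 2.86 and 4.23 CPM in CTRL and at 26 and 28.6 CPM in NF1KO (3.18 ± 0.26, adjusted p = 3.23e-06). All 3 were separated between the lines. The AP-1 subunit FOSL1 rose by 2.57 ± 0.35 at under 1 CPM, MYC by 0.69 ± 0.10 and ELK3 by 0.70 ± 0.11. The AP-1 subunit FOSL2 fell by 0.81 on the log2 scale (SE 0.08), and JUN was at -0.21 without a call. JUNB rose by 1.17 ± 0.18 and overlaps HOOK2, whose counts were 106% of its own. The rises of EGR1, FOS and IER2, with adjusted p of 0.043, 0.0452 and 0.0336, were each lost without at least 1 library. The call of FOS was also lost with DESeq2, limma-voom, no filter, a replicate block and the DMSO libraries alone, that of EGR1 with limma-voom and that of IER2 with the DMSO libraries alone. Without NF1KO replicate 2, 8 members of the list were called higher.

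**Figure D2:**
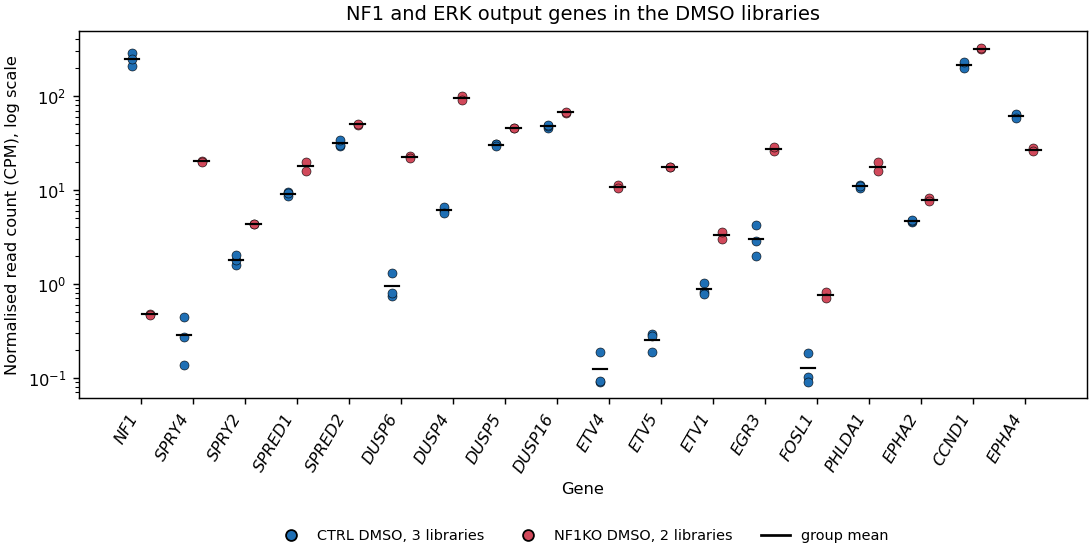
CPM (log scale) of NF1 and 17 ERK output genes in 3 CTRL (blue) and 2 NF1KO (red) DMSO libraries, with group means as bars; heights are not comparable between genes of different length. The 17 genes were picked from the lists. Members left out include FOSL2 and DUSP9, which fell, SPRY1, DUSP1 and JUN, which were not called, and EGR1, FOS and IER2. The groups do not overlap for any gene shown, which with 3 and 2 libraries can also happen without a difference. NF1 and EPHA4 are lower in NF1KO, and the others are higher.

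Windows around transcription starts were searched for 4 motifs on both strands, and 5 genes that rose are shown because they carry a match. The windows run from 250 bases before to 50 after a start listed by RefSeq (GRCh38.p14). The motifs were ETS (CCGGAAG), AP-1 (TGANTCA), CRE (TGACGTCA, the cyclic AMP response element) and the CArG box bound by serum response factor, and capitals mark the match. The 5 genes were picked after their values were seen. AREG (chr4:74444886-74445185, plus strand) and EPHA2 (chr1:16156020-16156319, minus strand) hold a CRE. PRDM1 (chr6:106098691-106098990, plus strand) and EZR (chr6:158818186-158818485, minus strand) hold an AP-1 match, and CXCR4 (chr2:136117820-136118119, minus strand) holds a CArG box.
AREG: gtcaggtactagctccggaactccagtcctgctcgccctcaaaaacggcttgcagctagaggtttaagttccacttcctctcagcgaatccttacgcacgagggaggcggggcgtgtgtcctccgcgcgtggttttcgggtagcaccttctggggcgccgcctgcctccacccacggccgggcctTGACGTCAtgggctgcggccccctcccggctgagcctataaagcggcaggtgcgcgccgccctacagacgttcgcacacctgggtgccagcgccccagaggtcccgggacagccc
EPHA2: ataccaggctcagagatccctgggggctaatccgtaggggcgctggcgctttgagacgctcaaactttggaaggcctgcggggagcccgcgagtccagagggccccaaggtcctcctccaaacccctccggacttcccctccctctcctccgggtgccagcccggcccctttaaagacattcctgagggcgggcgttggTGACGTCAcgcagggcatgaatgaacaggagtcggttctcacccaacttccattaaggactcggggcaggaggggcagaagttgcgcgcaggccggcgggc
PRDM1: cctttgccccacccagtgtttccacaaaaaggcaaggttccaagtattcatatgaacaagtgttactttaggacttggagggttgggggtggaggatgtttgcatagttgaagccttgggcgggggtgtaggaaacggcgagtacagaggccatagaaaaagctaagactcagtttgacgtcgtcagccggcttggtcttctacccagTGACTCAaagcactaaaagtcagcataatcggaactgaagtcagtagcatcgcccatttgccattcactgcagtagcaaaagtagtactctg
EZR: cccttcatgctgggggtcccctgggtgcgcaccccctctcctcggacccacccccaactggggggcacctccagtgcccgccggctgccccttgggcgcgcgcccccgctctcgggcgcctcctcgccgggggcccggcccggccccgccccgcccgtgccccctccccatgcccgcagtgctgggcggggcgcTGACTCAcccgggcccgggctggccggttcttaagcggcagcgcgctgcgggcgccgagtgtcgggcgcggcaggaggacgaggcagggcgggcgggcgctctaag
CXCR4: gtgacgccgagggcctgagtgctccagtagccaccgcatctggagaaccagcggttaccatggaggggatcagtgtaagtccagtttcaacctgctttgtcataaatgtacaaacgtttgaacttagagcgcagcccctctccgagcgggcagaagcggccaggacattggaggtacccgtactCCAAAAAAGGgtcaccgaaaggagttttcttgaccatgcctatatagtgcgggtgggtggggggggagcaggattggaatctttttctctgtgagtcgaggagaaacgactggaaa
The matches begin 65, 51, 42, 56 and 66 bases before the listed start, in that order.

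The share of windows with each motif is given for all tested genes and for the genes that changed most. Of 17761 windows of 12380 tested genes, 5.32% held the AP-1 letters, against 8.97% of windows of genes over 2-fold higher and 6.68% of those over 2-fold lower. The ETS letters stood in 15.8% of all windows, 5.79% of those over 2-fold higher and 4.69% of those over 2-fold lower. CRE was in 2.62%, 1.68% and 1.44%, and the CArG box in 1.09%, 1.87% and 2.17%. Of 23 genes that rose in the 4 ERK lists above, 15 had a window and 4, EGR1, EPHA2, IER2 and SPRED2, held any of the motifs. The share of all tested genes that held any of them was not counted, so these 4 cannot be set against it. These are counts of letters in windows, not of bound sites.

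The RAS pathway's own components changed little. Of 23 genes from receptor adaptors through RAS, RAF and MEK to ERK, 1 rose and 1 fell, 8.7% against 20.3% of all genes. SHOC2, the scaffold of the phosphatase complex that activates RAF, was at 370, 365 and 341 CPM in CTRL and at 182 and 175 CPM in NF1KO (-1.01 ± 0.10, adjusted p = 1.57e-05). The 2 groups were separated, and the call held in every alternative. KSR1, a scaffold for RAF, MEK and ERK, rose by 0.69 ± 0.19, a call lost without any 1 of 4 libraries. NRAS and BRAF were at -0.03 and 0.16 without a call. Besides NF1, 3 of 9 other RAS GTPase-activating genes fell and 1 rose, against 20.3% of all genes called. RASA3 fell by 0.51, RASA4 by 0.54 and DAB2IP by 0.34 on the log2 scale, and RASAL1 rose by 1.04 ± 0.27. Each of these 4 calls was lost without 1 of the NF1KO libraries.

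Of 8 tested ERBB ligands 4 rose and 1 fell, and of 4 ERBB receptors 3 fell and 1 rose, against 20.3% of all genes called. With a minimum of 1 CPM in 3 libraries, 2 ligands were called higher. Amphiregulin (AREG) was at 11.4, 12.6 and 14.3 CPM in CTRL and at 26.7 and 28.4 CPM in NF1KO (1.11 ± 0.13, adjusted p = 6.93e-05). TGFA was at 24.1, 25.3 and 25.7 CPM in CTRL and at 40.2 and 42.1 CPM in NF1KO (0.72 ± 0.08). Epiregulin (EREG) rose from at most 0.111 CPM to 1.05 and 1.09 CPM. All 3 bind EGFR and did not overlap between the lines. The ERBB4 ligand gene NRG4 fell by 0.93 on the log2 scale but overlaps FBXO22, whose counts were 2380% of its own.

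EGFR was at 19.4, 14.5 and 17.3 CPM in CTRL and at 8.16 and 8.73 CPM in NF1KO (-1.01 ± 0.15, adjusted p = 0.000373). ERBB2 was at 238, 267 and 275 CPM in CTRL and at 149 and 147 CPM in NF1KO (-0.82 ± 0.10, adjusted p = 9.06e-05). ERBB3, the receptor through which ERBB2 engages PI3K, fell by 0.46 on the log2 scale. The rise of ERBB4 (0.33 ± 0.10) was lost without any 1 library. Other receptor tyrosine kinases moved both ways, 5 of 23 up and 6 down (47.8% called, against 20.3% of all genes). MET was at 43, 42.7 and 44.2 CPM in CTRL and at 16.6 and 17.2 CPM in NF1KO (-1.36 ± 0.07), and FGFR2 fell by 1.03 and EPHA4 by 1.2 on the log2 scale. FGFR1, RET and EPHA1 rose by 0.57 ± 0.09, 0.50 ± 0.09 and 0.57 ± 0.07. EPHA2 rose by 0.75 ± 0.16, a call lost without NF1KO replicate 2.

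In the PI3K pathway, the regulatory subunit and the insulin receptor adaptor rose. PIK3R1, which encodes p85 alpha, the partner of the p110 alpha subunit that BYL719 inhibits, was at 88.7, 77 and 83.7 CPM in CTRL and at 276 and 270 CPM in NF1KO (1.72 ± 0.10, adjusted p = 2.22e-07). IRS1, which couples insulin and IGF1 receptors to PI3K, was at 50.4, 49.4 and 55.1 CPM in CTRL and at 109 and 118 CPM in NF1KO (1.14 ± 0.08, adjusted p = 6.63e-07). Both were separated between the lines. PIK3CA, AKT1 and MTOR were at -0.05, -0.07 and -0.04 without a call. Of 24 pathway components 2 rose and 4 fell (25.0% called, near the 20.3% of all genes). Of the 2 rises 1 was over 2-fold, and IRS1 is not among them but counted with the FOXO targets below. SGK1, a kinase related to AKT, was at 4.05, 4.88 and 5.14 CPM in CTRL and at 1.86 and 2.12 CPM in NF1KO (-1.23 ± 0.17). PIK3CD overlaps CLSTN1, whose counts were 4750% of its own, and SGK3 overlaps C8orf44-SGK3. The call of SGK3 was lost without either NF1KO library.

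Targets of FOXO factors, which AKT keeps out of the nucleus, mostly fell where they changed. Of 19 genes, 6 fell and 1, IRS1, rose (36.8% called, against 20.3% of all genes), with a median of -0.19. TXNIP, which binds thioredoxin, was at 65.9, 71.8 and 80.1 CPM in CTRL and at 39.9 and 39.9 CPM in NF1KO (-0.86 ± 0.08, adjusted p = 1.68e-05). CITED2 fell by 0.83, CCNG2 by 0.64 and FBXO32 by 0.60 on the log2 scale, the last 2 calls being lost without NF1KO replicate 3. The count of falls was 3 without NF1KO replicate 3 and 9 without both CTRL number-1 libraries.

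The hormone receptor genes ESR1 and PGR fell, luminal factors moved both ways and estrogen receptor targets split. ESR1, the estrogen receptor, was at 350, 299 and 319 CPM in CTRL and at 181 and 181 CPM in NF1KO (-0.83 ± 0.09, adjusted p = 3.3e-05). The progesterone receptor PGR was at 879, 804 and 965 CPM in CTRL and at 565 and 589 CPM in NF1KO (-0.61 ± 0.12). FOXA1 and GRHL2, factors of luminal cells, fell by 0.39 and 0.48. GATA3 was at 0.23 without a call. Over the list of hormone receptors and luminal factors the median was 0.02, and 8 members were not called. DESeq2 and a replicate block each called 4 of them higher. In all, 6 of 16 luminal factors fell and 2 rose, against 20.3% of all genes called, and 0 rose without NF1KO replicate 2.

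Of 35 estrogen receptor targets 12 fell and 7 rose (54.3% called, against 20.3% of all genes), with a median of -0.06. GFRA1, the coreceptor that presents GDNF to RET, was at 94.3, 97.7 and 108 CPM in CTRL and at 6.85 and 6.81 CPM in NF1KO (-3.87 ± 0.09, adjusted p = 1.63e-10). KCNK5, a potassium channel, fell by 2.06, SERPINA1 by 1.74 and IGFBP5 by 1.03 on the log2 scale. HSPB8, a small heat shock protein, was at 68, 72.9 and 79.2 CPM in CTRL and at 198 and 210 CPM in NF1KO (1.48 ± 0.10). RERG rose by 0.90 ± 0.09 and CCND1 by 0.57 ± 0.09. TFF1, a standard readout of the receptor, was at 0.06 without a call, and GREB1 fell by 0.44 on the log2 scale, a call lost without NF1KO replicate 2, as was that of PGR.

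**Figure D3:**
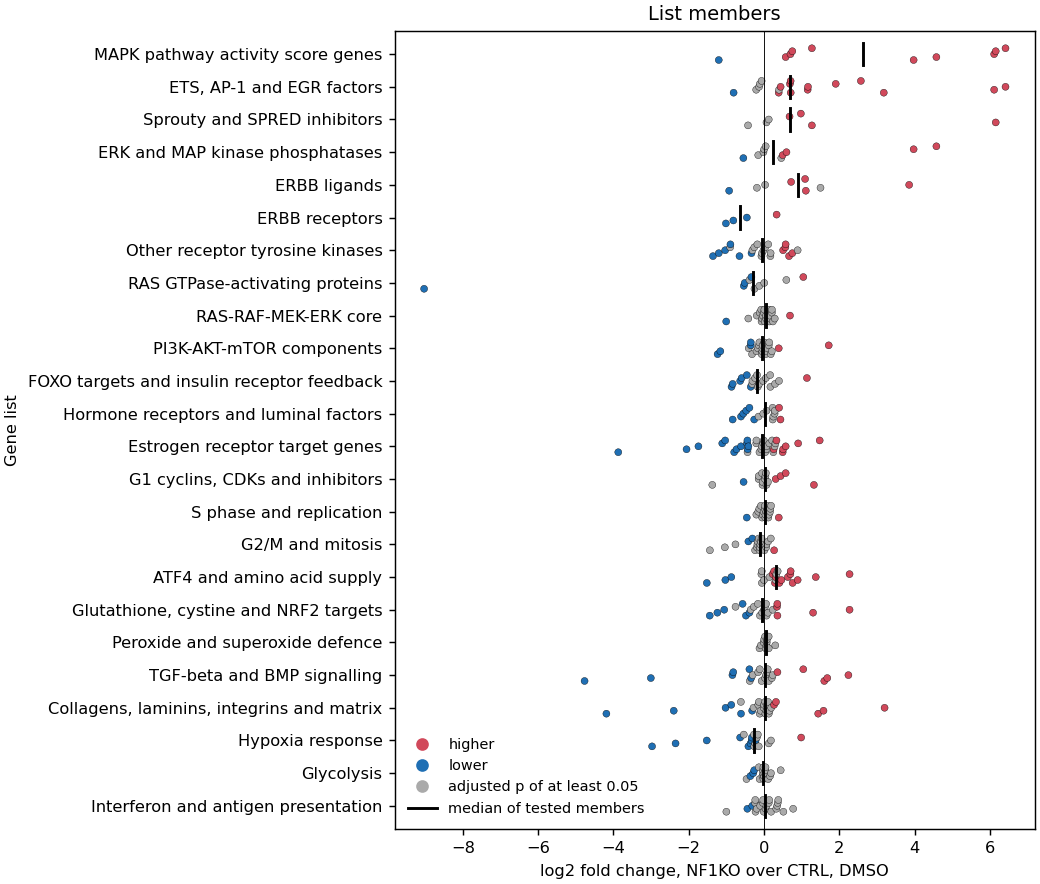
Log2 fold changes of the tested members of 24 gene lists, each point a gene, red where higher, blue where lower and grey where not called, with the list median as a bar. The median is highest for the MAPK pathway activity score genes (2.62) and lowest for the ERBB receptors (-0.64).

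The largest rises among genes of at least 10 CPM in NF1KO also took in genes outside the ERK lists. DOK7, the adaptor of the muscle kinase MuSK, was at 1.08, 1.04 and 1.69 CPM in CTRL and at 56.1 and 61.8 CPM in NF1KO. CLSTN2, a calsyntenin of synapses, was at 4.07, 4.01 and 5.68 CPM in CTRL and at 123 and 135 CPM in NF1KO. CXCR4, the receptor of the chemokine CXCL12, was at 5.7, 6.47 and 6.44 CPM in CTRL and at 82.4 and 88.1 CPM in NF1KO. Their log2 fold changes were 5.54 ± 0.23, 4.81 ± 0.15 and 3.78 ± 0.11. Only genes separated between the lines could enter this ranking, so their separation follows from the choice. CXCL12 itself fell by 0.45 on the log2 scale. PRDM1, a transcriptional repressor, was at 0.979, 1.35 and 1.19 CPM in CTRL and at 18.9 and 19 CPM in NF1KO (4.02 ± 0.14). AOC1, which degrades histamine and putrescine, rose by 5.37 ± 0.19, TRIM55 by 5.52 ± 0.19, the Frizzled ligand NDP by 4.79 ± 0.21 and the endocytic receptor LRP2 by 4.39 ± 0.19. PHLDB2, a cell cortex protein, rose by 3.85 ± 0.14 and FGD5, an exchange factor for CDC42, by 3.70 ± 0.21.

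Large falls were seen in genes of several roles. Versican (VCAN), a matrix proteoglycan, was at 584, 438 and 490 CPM in CTRL and at 23.6 and 31.7 CPM in NF1KO (-4.19 ± 0.20, adjusted p = 3.37e-08). PREX1, an exchange factor for RAC that responds to PI3K and G protein signals, was at 629, 564 and 598 CPM in CTRL and at 97.2 and 109 CPM in NF1KO (-2.54 ± 0.09, adjusted p = 2.28e-09). CLDN1, a tight junction protein, was at 96.5, 107 and 95.3 CPM in CTRL and at 15.9 and 15.2 CPM in NF1KO (-2.68 ± 0.12). All 3 were separated between the lines, which was a condition for the ranking of falls. The calcitonin receptor CALCR fell by 5.56, ARMCX1 by 4.43, GNG11, a G protein gamma subunit, by 3.26 and ID4 by 3.01 on the log2 scale. VTCN1, an inhibitory ligand of T cells, fell by 2.70 and LHFPL6 by 2.54. PHACTR1, TENM3 and PLCE1, which fell by 3.77, 3.35 and 3.18, overlap other genes with 241%, 21.8% and 282% of their counts.

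By absolute change in CPM, a few abundant genes carried the most. PEG10 was at 1194, 995 and 1208 CPM in CTRL and at 2269 and 2356 CPM in NF1KO (1.03 ± 0.10, adjusted p = 1.78e-05). EZR, which encodes ezrin, a linker of membrane and actin, was at 402, 406 and 419 CPM in CTRL and at 931 and 903 CPM in NF1KO (1.16 ± 0.07). Clusterin (CLU) was at 215, 272 and 268 CPM in CTRL and at 694 and 638 CPM in NF1KO (1.40 ± 0.10). CRABP2, a carrier of retinoic acid, rose by 0.71 ± 0.12. The rise of MGP (0.76 ± 0.16) was lost without NF1KO replicate 3 and that of CTSD (0.50 ± 0.12) without either NF1KO library. The prolactin receptor PRLR was at 2748, 2229 and 2547 CPM in CTRL and at 1397 and 1587 CPM in NF1KO (-0.75 ± 0.14, adjusted p = 0.0022). Desmoplakin (DSP), which anchors desmosomes, was at 1520.4, 1076 and 1168 CPM in CTRL and at 613 and 701 CPM in NF1KO (-0.93 ± 0.16).

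Of 21 S phase genes 1 rose and 1 fell in DMSO (9.52% called), and of 21 mitotic genes 1 rose and 2 fell (14.3%), against 20.3% of all genes. Without both CTRL replicate 1 libraries, 5 mitotic genes fell, and without CTRL replicate 1 or 2 or either NF1KO library, 0 did. MCM7, a helicase subunit, was at 262, 246 and 248 CPM in CTRL and at 182 and 184 CPM in NF1KO (-0.46 ± 0.09), and lies in the chromosome 7 stretch of lower values described with the chromosomes. The calls of CDT1, PLK1, TOP2A and NUSAP1, at adjusted p between 0.0172 and 0.0423, were each lost without at least 1 CTRL library. In G1, 4 of 16 genes rose and 1 fell (31.2% called, against 20.3% of all genes). CDKN1A, the inhibitor p21, was at 15.5, 20.5 and 20.7 CPM in CTRL and at 45.5 and 49.1 CPM in NF1KO (1.32 ± 0.13, adjusted p = 1.42e-05). Cyclin D1 (CCND1) was at 214, 199 and 233 CPM in CTRL and at 315 and 325 CPM in NF1KO, and CCND3 rose by 0.44 ± 0.07. Of 15 BCL2 family genes 4 rose and 1 fell (33.3% called, against 20.3% of all genes). BCL2, the survival factor, was at 2.15, 2.44 and 2.91 CPM in CTRL and at 7.07 and 8.37 CPM in NF1KO (1.63 ± 0.13), and BID and BAK1, which promote cell death, rose by 0.70 ± 0.08 and 0.43 ± 0.09.

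Genes of amino acid supply and ATF4, a transcription factor of the amino acid response, mostly rose where they changed. Of 24 genes, 13 rose and 3 fell (66.7% called, against 20.3% of all genes), with a median of 0.31, and the falls were SLC7A5, SLC38A1 and VLDLR. SLC7A5, the light chain of the large neutral amino acid exchanger, was at 1719, 1694 and 1596 CPM in CTRL and at 813 and 824 CPM in NF1KO (-1.03 ± 0.07, adjusted p = 8.09e-07). Its heavy chain SLC3A2, on the glutathione list, was at 515, 548 and 500 CPM in CTRL and at 351 and 351 CPM in NF1KO (-0.57 ± 0.08, adjusted p = 0.00022). The glutamine transporter SLC1A5 was at 217, 231 and 215 CPM in CTRL and at 356 and 362 CPM in NF1KO (0.70 ± 0.07, adjusted p = 1.95e-05). All 3 were separated between the lines. TRIB3, an ATF4 target, rose by 0.89 ± 0.10, PSAT1 of serine synthesis by 0.76 ± 0.15 and SESN2 by 0.63 ± 0.07, while ATF4 itself was at 0.36 without a call (adjusted p = 0.0743). ATF4 was called higher by DESeq2 (adjusted p = 0.0487), with a replicate block (0.00427), without CTRL replicate 1 (0.00352) and without both CTRL replicate 1 libraries (0.000146). DDIT3 and ASNS rose by 0.71 ± 0.12 and 0.41 ± 0.12 and overlap MARS1 and CZ1P-ASNS. The count of rises was 7 without either NF1KO library, and the call of ASNS was lost without any 1 of 4 libraries.

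Glutathione and thiol genes split. Of 23 genes 5 rose and 6 fell (47.8% called, against 20.3% of all genes), with a median of -0.05. SLC7A11, the cystine carrier that pairs with SLC3A2, was at 28, 14.2 and 13.5 CPM in CTRL and at 45.5 and 46.2 CPM in NF1KO (1.3 ± 0.30, adjusted p = 0.0096). CTRL replicate 1 was the high control, and the call was lost without either NF1KO library. CHAC1, which breaks glutathione down, was at 1.58, 2.02 and 1.21 CPM in CTRL and at 7.66 and 7.83 CPM in NF1KO (2.27 ± 0.20, adjusted p = 6.13e-06). Glutathione reductase (GSR) was at 189, 192 and 189 CPM in CTRL and at 134 and 138 CPM in NF1KO (-0.48 ± 0.09), and GSTM3, a glutathione transferase, fell by 1.24 on the log2 scale. The ligase subunits GCLC and GCLM were at -0.11 and 0.06 without a call. Rises numbered 1 without either NF1KO library. Of 12 genes of peroxide and superoxide defence, 0 were called by edgeR's quasi-likelihood test, by DESeq2 or by limma-voom, and 1 had an unadjusted p under 0.05. With only the DMSO libraries fitted, 1 rose. In the pentose phosphate pathway, 2 of 9 genes rose (22.2% called, near the 20.3% of all genes).

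Of 19 hypoxia genes 9 fell and 1 rose (52.6% called, against 20.3% of all genes). NDRG1 was at 38.7, 42.6 and 48.1 CPM in CTRL and at 5.39 and 5.58 CPM in NF1KO (-2.97 ± 0.19, adjusted p = 5.79e-07). CA9, a carbonic anhydrase, fell by 2.35 and ADM by 1.52 on the log2 scale, both at under 3 CPM. PFKFB3, a regulator of glycolysis, was at 190, 207 and 220 CPM in CTRL and at 426 and 388 CPM in NF1KO (0.98 ± 0.09). Falls numbered 4 without either NF1KO library, 13 with a replicate block and 12 without both CTRL replicate 1 libraries, and VEGFA was at 0.18 without a call. Of 19 glycolysis genes 3 fell (15.8% called, against 20.3% of all genes). These were LDHA by 0.36, PFKM by 0.29 and PFKL by 0.26 on the log2 scale. Each call was lost without at least 1 NF1KO library, and PFKM overlaps SENP1. Of 22 genes of cholesterol and fatty acid synthesis 3 rose and 2 fell (22.7% called, against 20.3% of all genes), and 0 rose without CTRL replicate 1 or without either NF1KO library.

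TGF-beta and BMP genes moved both ways, 5 of 23 up and 6 down (47.8% called, against 20.3% of all genes). TGFB1 was at 5.41, 8.07 and 9.97 CPM in CTRL and at 24.2 and 23.1 CPM in NF1KO (1.6 ± 0.22, adjusted p = 0.000253). TGFB2 was at 7.99, 7.45 and 7.13 CPM in CTRL and at 0.277 and 0.272 CPM in NF1KO (-4.77 ± 0.15), and overlaps TGFB2-OT1, whose counts were 20.3% of its own. The 2 ligand genes thus differed in opposite directions. The ID genes, targets of BMP that block basic helix-loop-helix factors, also divided: ID1 and ID3 rose by 1.68 ± 0.20 and 1.04 ± 0.15, and ID2 and ID4 fell by 0.84 and 3.01 on the log2 scale. In Wnt and Notch signalling 3 of 23 genes rose and 3 fell (26.1% called, against 20.3% of all genes), and 1 fell without either NF1KO library. FZD7, a Frizzled receptor, was at 8.69, 9.86 and 10.2 CPM in CTRL and at 18.1 and 17.8 CPM in NF1KO (0.91 ± 0.11), and LEF1 fell by 1.46 on the log2 scale.

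Of 28 matrix and integrin genes 5 rose and 6 fell (39.3% called, against 20.3% of all genes). ITGB6, an integrin subunit that activates latent TGF-beta, was at 1.17, 1.53 and 1.43 CPM in CTRL and at 14.3 and 11 CPM in NF1KO (3.20 ± 0.17, adjusted p = 1.14e-07). TIMP1 and TIMP3, inhibitors of metalloproteinases, rose by 1.44 ± 0.22 and 1.58 ± 0.11. COL6A1 fell by 2.40, LAMB1 by 1.02 and COL4A5 by 0.87 on the log2 scale. COL1A1 was at 51.9, 49.4 and 55.2 CPM in CTRL and at 25.8 and 25.9 CPM in NF1KO (-1.01 ± 0.12) and made up nearly all of the fibroblast marker sum. Of 14 luminal keratin and junction genes 1 rose and 2 fell, 21.4% called against 20.3% of all genes, and 3 rose by DESeq2 and 4 with a replicate block. CDH1 was at 0.01, KRT8 at 0.11 and KRT18, which may share counts with KRT8, at 0.32 without a call, and KRT18 was called in 4 of the alternatives, DESeq2 among them. Of 10 basal and mesenchymal markers 3 rose (2 without NF1KO replicate 2 and 1 without NF1KO replicate 3, against 9.99% of all genes), among them TWIST1 from at most 0.0557 CPM to 1.22 and 1.34 CPM, and 1, CDH3, fell by 0.77 on the log2 scale. VIM was at -0.10 without a call. Of 22 interferon and antigen presentation genes 2 fell (9.09% called, against 20.3% of all genes), among them STAT2 by 0.44 on the log2 scale.

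Some genes were at or under 3 counts in every DMSO library of a line and at a mean of 1 CPM or more in the other. Of these, 5 were on in NF1KO. DRD1, a dopamine receptor (chr5:175440036-175444182), had 3, 2 and 3 counts in CTRL and 353 and 287 in NF1KO. The netrin receptor UNC5C had 2, 0 and 0 counts against 163 and 144, and S100A7, psoriasin, had 0, 1 and 0 against 69 and 84. RAD21L1, a meiotic cohesin subunit, and TWIST1 were the others. In CTRL in BYL719, 4 of these 5 were also at or under 3 counts in every library, and RAD21L1 was not. In the opposite direction, SNX7, a sorting nexin, had 132, 130 and 110 counts in CTRL and 3 and 2 in NF1KO, and the cytokine IL20 had 71, 66 and 78 against 0 and 2. The third was TGFB2-OT1, which lies within TGFB2. In NF1KO in BYL719, 0 of these 3 genes stayed at or under 3 counts in every library.

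The line difference in BYL719 was measured in libraries of its own, from the same 2 lines. There, 39.8% of genes were called. Of the 3269 genes called in DMSO, 2432 (74.4%) had the same call in BYL719, 69 had the opposite call and 92.5% had the same sign. The shared genes were 38.0% of the 6404 called in BYL719. Of the DMSO genes over 2-fold, 85.1% had the same call. The difference between the 2 effects was called for 16.1% of the DMSO genes, against 9.39% of all genes tested. The DMSO genes were chosen by an effect that enters this difference, so the 2 shares cannot be compared. Cell cycle genes were the clearest case: of 21 S phase genes 2 were called in DMSO and 21 were higher in BYL719, and all 21 were called for the difference. All 10 genes of the MAPK activity score had the same call in both treatments, with medians of 2.62 and 2.59.

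**Figure D4:**
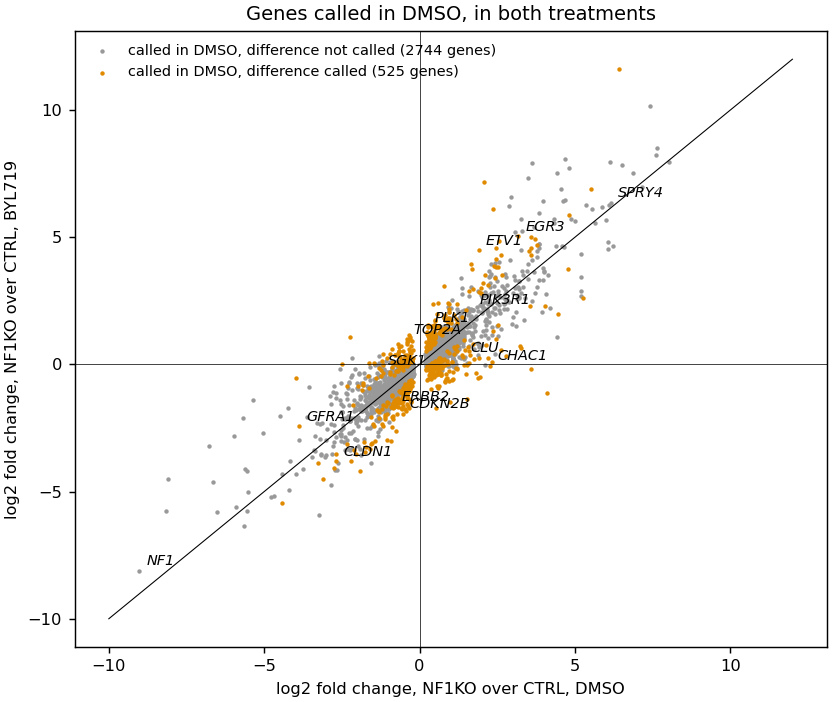
Log2 fold changes of NF1KO over CTRL in DMSO (x axis) and in BYL719 (y axis) for the 3269 genes called in DMSO, with the diagonal drawn; orange marks the 525 genes called for the difference. Fitted folds of genes with 0 counts in a group, such as ETV4 in CTRL BYL719, depend on the prior count. SPRY4 lies near the diagonal, and CHAC1 near 0 in BYL719.

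Fold changes were not spread evenly along the chromosomes. Medians were taken over 1498 windows of 50 neighbouring tested genes, of which 37 lay below -0.2 and 3 above 0.2, while 5% lay below -0.131 and 5% above 0.106. The windows below -0.2 joined into 6 stretches that held 199 of the 1662 genes that fell. The stretches were chosen by their low DMSO values, so a high share of DMSO falls within them follows from that choice. The longest, on chromosome 7, held 250 tested genes, of which 111 (44.4%) fell, against 10.3% of all genes, among them CALCR, GNG11, MET, LAMB1, RASA4 and MCM7, while PEG10 and ASNS in it rose. On the X chromosome (chrX:81113699-107118822), 25 of 70 genes fell (35.7%), led by ARMCX1, and the median was -0.28. On chromosome 14 (chr14:55576157-70417090), 26 of 90 genes fell (28.9%), among them HSPA2, at 35.4, 38.8 and 39 CPM in CTRL and 17.2 and 16.4 CPM in NF1KO. On chromosome 10 (chr10:37125598-60733528), 22 of 80 genes fell (27.5%). A stretch on chromosome 5 with protocadherin genes (chr5:139526240-141512975) had a median of -0.22 with 9 of 70 genes called lower (12.9%), near the share over all genes. The BYL719 libraries did not choose these stretches. Their medians on chromosomes 7, 5, 10, 14, 15 and X were -0.46, -0.43, -0.16, -0.15, -0.14 and -0.13. The DMSO medians, in that order, were -0.40, -0.22, -0.16, -0.22, -0.20 and -0.28. Over all tested genes the BYL719 median was -0.002. Windows above 0.2 formed 2 stretches, on chromosome 6 (median 0.24 in both treatments) and chromosome 9 (0.21 in DMSO, 0.27 in BYL719).

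**Figure D5:**
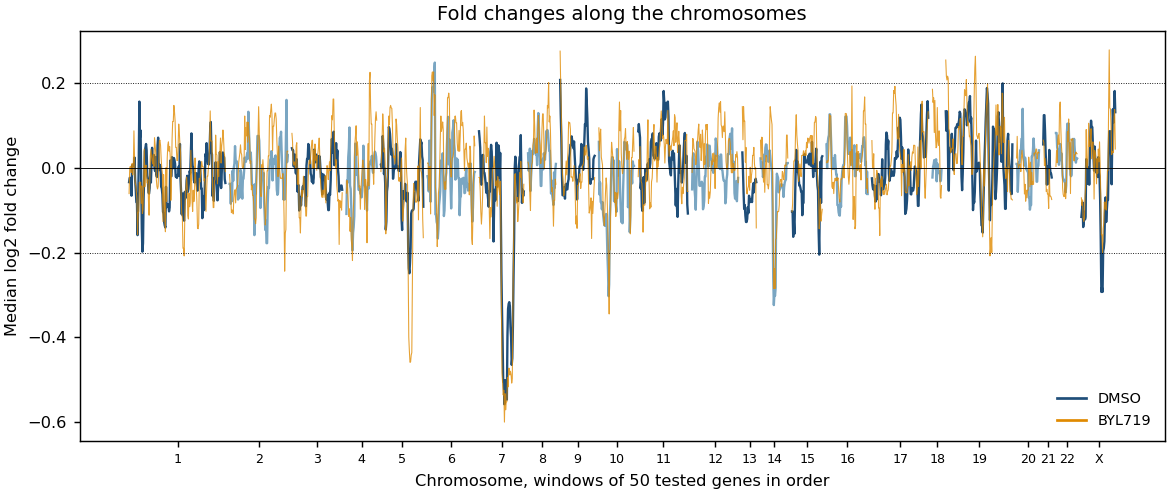
Median log2 fold change of NF1KO over CTRL in windows of 50 tested genes in chromosome order, for DMSO (blue, in alternating shades by chromosome) and BYL719 (orange), with dotted lines at 0.2 and -0.2. The chromosome 7 stretch lies lowest in both treatments.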

How the data were processed

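Messenger RNA was prepared with a stranded kit and sequenced as single reads of 76 bases, per the labels' protocols. The submitters' processing notes name hg38, STAR 2.5.2a, SAMtools 1.7, Picard 2.9.2 and edgeR. The authors deposited whole-number, unscaled read counts for each gene by Entrez identifier. The counting tool, its strand setting and the annotation are not given in the sources used here, so reads of overlapping genes may be shared, and named genes are marked where an overlapping gene holds 20% or more of their counts. Of 27864 genes, 27740 (99.6%) matched RefSeq on GRCh38.

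The fits used edgeR 4.0.16 under R 4.3.3. Genes were filtered with filterByExpr, libraries scaled by TMM, and a quasi-likelihood model of 4 groups over all 11 libraries (7 residual degrees of freedom) was tested, 2-sided, with Benjamini-Hochberg adjustment over the 16081 tested genes. A standard error is the log2 fold change over the square root of its F statistic. In simulated counts, 64% of genes changed 1.5-fold and 80.8% of those changed 2-fold were called, and 5.9% of calls were false. The simulation changed 200 of 15866 genes, a smaller share than the 20.3% called in the data, so its rates may not hold there.

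Named genes were NF1, DUSP6, SPRY4 and ETV5; the 15 largest rises and falls among called genes with at least 10 CPM on average in the higher line, no overlap between lines and a symbol of no noncoding or unnamed kind; the 6 largest rises and falls in CPM; up to 4 called members per list by adjusted p; and members whose role the text needs. Genes at or under 3 counts in a line's DMSO libraries, in chromosome stretches and in the promoter lines were named after their values were seen. There were 33 lists of 562 genes, of which 47 were too low to test. The comparison, lists and rules were chosen with earlier results of these data known. Alternatives were RLE and upper-quartile scaling, 2 other filters, DESeq2 1.42.0, limma-voom (limma 3.58.1), a replicate block, the DMSO libraries alone and leaving libraries out. Some genes that these rules would name are not reported here.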

Additional observations from a re-analysis of the deposited data

Results flagged for a closer look

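For 51 of 187 genes followed by name, against 9.39% of all genes tested, the difference between NF1KO and CTRL was not the same in DMSO and in BYL719 by edgeR's test of the interaction, with adjusted p from 2.36e-05 to 0.047. Of the 187, 168 were called in DMSO, and the DMSO effect enters this difference. The 2 shares therefore cannot be compared. Each value below is the log2 fold change in BYL719 minus that in DMSO. Among ERK output genes the effect differed for ETV1 by 2.58, EGR3 by 1.86 and SPRED1 by 0.78, and for SPRY1 by -0.53, DUSP1 by -1.01, JUN by -0.81, FOSL2 by -0.61 and MYC by -0.57. For ETV4 the fitted difference was 5.20, a value that depends on the prior count and is no bound, since all 3 CTRL BYL719 libraries had 0 counts.

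Cell cycle genes differed as well: CDT1 by 1.10, PLK1 by 1.2, NUSAP1 by 1.39, TOP2A by 1.40, MCM7 by 0.75 and CCND3 by 0.39 were higher in the BYL719 contrast, and CDKN2B, a CDK inhibitor, differed by -1.39. Receptors and pathway adaptors differed, ERBB2 by -0.85, FGFR2 by -0.45 and IRS1 by -0.52, and in the other direction RET by 0.56, GFRA1 by 1.45, SGK1 by 1.01 and SGK3 by 0.70. Estrogen receptor and its targets differed, ESR1 by 0.44, RERG by 0.77, HSPB8 by -0.92 and IGFBP5 by -0.92.

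CHAC1, which was higher in NF1KO in DMSO at 2.27, was at -0.05 in BYL719, a difference of -2.32. Other genes of amino acid supply differed, ASNS by -0.63, DDIT3 by -0.75, SESN2 by -0.39 and SLC38A1 by -0.63. Hypoxia and metabolic genes differed, ADM by -1.59 and LDHA by 0.52. ID3 had opposite signs, 1.04 in DMSO and -0.60 in BYL719, a difference of -1.64.

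Of the remaining genes, the value was positive for CLSTN2 by 1.06, CXCL12 by 0.45, FGD5 by 1.23, FZD7 by 0.75, HSPA2 by 1.16 and TRIM55 by 1.38. It was negative for ARMCX1 by -1.02, CLDN1 by -1.14, CLU by -1.12, COL4A5 by -0.35, DLL1, which overlaps FAM120B with 1440% of its counts, by -0.71, GNG11 by -0.62, KRT18 by -0.59, NDP by -1.02, TIMP3 by -1.05 and VTCN1 by -0.84.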

How the results depend on the processing

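No gene called in DMSO changed direction in any alternative that also called it. Of 187 genes followed by name, 168 were called. Of these, 129 were called in every alternative that tested them, and 39 lost the call in at least 1. A gene removed by the filter of an alternative was not counted as lost there. Leaving out 1 library at a time gave 744 to 1286 genes higher and 779 to 1408 lower, against 1607 and 1662. When a gene had to reach 1 CPM in 3 or more libraries, 300 genes were over 2-fold higher and 329 over 2-fold lower, against 453 and 455; fewer genes were tested. With the replicate block, 2040 genes were higher and 2133 lower. Deviations of same-number libraries correlated at 0.07 and -0.02 in DMSO and at 0.06, -0.09 and 0.15 in BYL719. The deviations of the 2 NF1KO libraries in DMSO mirror each other, so these values cannot exclude a pairing by number. DESeq2 called 1855 higher and 1887 lower. The simulation varied only the size of the change, so how far depth and 2 NF1KO libraries limit the calls was not tested.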
